A study of Homo sapiens with 6 samples.

Results

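The 45 genes described here encode nucleolar ribosome biogenesis factors, the proteins that transcribe, modify, cut and fold ribosomal RNA in the nucleolus. They were chosen by official gene symbol among the 19240 genes of the count table, by a rule that uses no measured value, although the list was drawn up with earlier results of these data known. All 45 were found, and all 45 passed the filter on low counts that left 11886 genes to be tested. The cells were A549, an established human lung carcinoma line, cultured for 48 h either in 25 mM glucose or with no glucose in the medium. Each group had 3 libraries, in which transcripts were counted from their 3' ends. Both groups share the cell line, and no genetic change is named for either. The series is on metabolic adaptation of tumor cells that lack glucose, and its title names PCK2.

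Ribosome production begins in the nucleolus, where RNA polymerase I transcribes a long precursor RNA. Small nucleolar ribonucleoproteins (snoRNPs) modify the precursor, the small-subunit processome folds and cuts the part that becomes the 40S subunit, and a further set of factors builds the 60S subunit. The process uses much of the energy of a growing cell, and its genes are commonly active in proliferating tumor cells.

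The total of gene counts per library was 6701004 to 14259943 in the group with glucose and 11086416 to 14060313 in the other group. Separate cultures are not stated in the labels, so the p-values here reflect library-to-library spread alone, which may be technical. Replicate 1 with glucose stood apart from the other libraries of its group on the second principal component (17.6% of the variance; scores of 38.6, −23.9 and −19.9). Results that rest on it are given with and without it. KRT8 and KRT18, keratins of epithelial cells, were at 752 CPM or more and 722 CPM or more in every library, and both fell without glucose (log2 fold changes −1.18 and −0.90, edgeR adjusted p = 0.00150 and 0.00473). EPCAM, another epithelial marker, was low (2.54 to 5.63 CPM). Of the defining markers of other cells, VWF and KDR of endothelium, CD3E of T cells, and COL1A2 and DCN of fibroblasts had a count of 0 in every library. Others were low but not at 0, with up to 0.768 CPM for CDH5, 0.565 CPM for PECAM1 and for PTPRC, and 2.26 CPM for LUM. Summed markers of fibroblasts were 13.0 to 14.8 CPM with glucose and 4.51 to 5.89 CPM without it (mostly COL1A1), those of endothelium 0.281 to 0.848 and 0.190 to 0.306 CPM, and those of leukocytes 16.1 to 18.2 and 25.0 to 39.3 CPM (mostly CD68). CPM here is the count of a gene scaled to a common library size.

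Without glucose, 9 of the 45 factors fell, 1 rose and 35 did not pass; over all tested genes 22.3% passed in either direction. A gene passed at an adjusted p under 0.05 in the quasi-likelihood test of edgeR, with Benjamini-Hochberg adjustment over all genes tested. The factors that fell were FBL, NHP2, UTP18, BYSL, BOP1, PES1, MRTO4, RRP1B and NOP16, and the factor that rose was NOP53. Over all tested genes 10.7% fell and 11.6% rose, against 9 and 1 of the 45 factors. The median log2 fold change of the 45 factors was −0.20, against 0.02 over all tested genes, and 35 of the 45 values were below 0. The values ran from −1.24 for UTP18 to 0.66 for NOP53. Groups of libraries that did not overlap were seen for 11 factors that were lower (19.4% of all tested genes) and for 2 that were higher (21.0% of all tested genes). In bulk RNA, fewer cells with a transcript and less of it per cell cannot be told apart, and levels are relative to each library's total.

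Calls for single factors differed in how they held. BOP1, MRTO4, RRP1B and UTP18 passed under all 12 alternative settings (other scalings, filters, another test and each library left out). With replicate 3 of the group without glucose left out 4 factors fell (6.52% of all tested genes fell in that fit). With replicate 2 or replicate 3 of the other group left out 6 fell (7.30% and 7.49% of all tested genes). Leaving out replicate 1 with glucose gave 10 factors that fell, of which 7 were among the 9 (10.2% of all tested genes fell). The median of the factors was then −0.38. Cell division genes moved in the same libraries: all 6 proliferation markers examined (MKI67, PCNA, TOP2A, CCNB1, CDK1 and MCM2) fell, and their summed level was 2158 to 3485 CPM with glucose and 1040 to 1533 CPM without it. Their part in the lower levels of the ribosome factors was not tested.

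**Figure D1:**
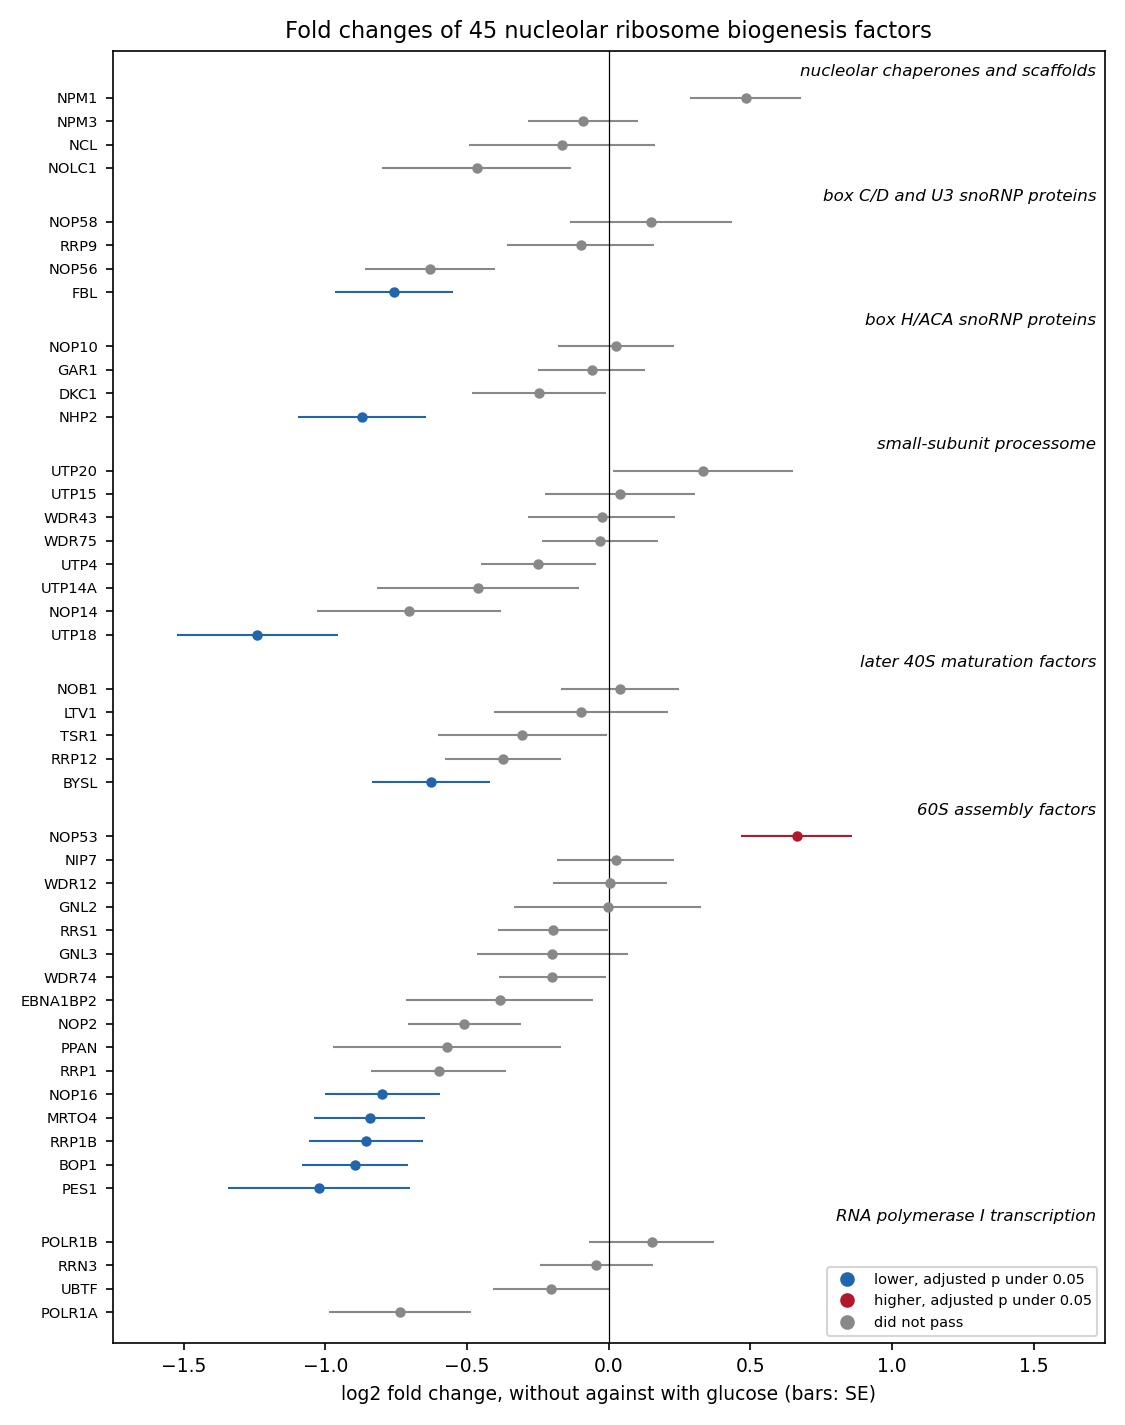
Log2 fold changes without against with glucose (x axis) of the 45 factors (y axis, grouped by role), as points with bars of 1 SE. Blue points fell, the red point rose and grey points did not pass; the values run from −1.24 for UTP18 to 0.66 for NOP53.

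Transcription by RNA polymerase I is the first step, and none of its 4 genes passed. POLR1A, the largest subunit of the enzyme, stood at 57.1, 39.48 and 41.0 CPM with glucose and at 35.8, 27.4 and 19.5 CPM without it (replicates 1, 2 and 3, here and below). All 3 libraries without glucose lay below all 3 with glucose. Its log2 fold change of −0.74 ± 0.25 (SE) just missed the threshold (edgeR adjusted p = 0.0525). POLR1A passed under 6 of the 12 alternative settings, among them median-ratio scaling (0.0476) and the DESeq2 test (0.0298). It missed with a filter on a mean of 20 counts (0.0533). Of the fits with 1 library left out, only that without replicate 1 of the group without glucose passed (0.0287). The others gave edgeR adjusted p-values from 0.0754 to 0.181.

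UBTF, which binds the ribosomal DNA promoter, measured 220.5, 201 and 163.5 CPM with glucose and 179, 185 and 143 CPM without it. RRN3, the initiation factor that brings the polymerase to UBTF-bound promoters, measured 29.1, 28.4 and 32.8 CPM with glucose and 31.7, 24.0 and 32.0 CPM without it. POLR1B, the second subunit of the catalytic core, measured 35.6, 49.2 and 45.5 CPM with glucose and 60.2, 42.6 and 42.3 CPM without it. For each of these 3 genes the groups overlapped, with log2 fold changes of −0.20 ± 0.21, −0.04 ± 0.20 and 0.15 ± 0.22.

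The abundant nucleolar chaperones and scaffolds included no gene that passed. NPM1, nucleophosmin, the chaperone of the granular layer of the nucleolus, stood at 616, 744 and 788 CPM with glucose and at 862, 1075 and 1065 CPM without it. The groups did not overlap and the libraries without glucose were higher, but the log2 fold change of 0.48 ± 0.20 did not pass (edgeR adjusted p = 0.0931). RefSeq lists 50 pseudogenes named after NPM1, and reads that align equally well to several copies are left out of the counts, so its level is uncertain. NCL, nucleolin, which binds the nascent precursor, measured 1369.7, 2339.6 and 3037 CPM with glucose and 2472, 1095 and 2455 CPM without it. Replicate 1 with glucose and replicate 2 without glucose were both far below the other libraries, and the log2 fold change was −0.16 ± 0.33.

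NOLC1, a scaffold that binds snoRNPs, measured 206, 335 and 609 CPM with glucose and 349.5, 264 and 219.5 CPM without it. The spread with glucose was wide, and the log2 fold change of −0.47 ± 0.33 did not pass. NPM3, a small relative of nucleophosmin, measured 213, 169 and 188 CPM with glucose and 159, 196 and 181 CPM without it, and the groups overlapped.

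Among the proteins of box C/D snoRNPs, FBL fell. FBL (Entrez 2091), fibrillarin, the methyltransferase of these particles, went from 945, 769 and 666 CPM with glucose to 392, 509.8 and 507 CPM without it. Every library without glucose was below every library with glucose, and the log2 fold change was −0.76 ± 0.21 (edgeR adjusted p = 0.0220). Leaving out a library ended the call for replicates 1 (0.0544) and 2 (0.0585) with glucose, and for replicates 1 (0.0782) and 3 (0.0546) in the other group.

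NOP56, which with NOP58 forms the core that holds fibrillarin, measured 921, 1404.5 and 1489.9 CPM with glucose and 847, 675 and 944 CPM without it. Replicate 1 with glucose lay within the range of the libraries without glucose, and the log2 fold change of −0.63 ± 0.23 did not pass (edgeR adjusted p = 0.0644). Without that replicate NOP56 passed (log2 fold change −0.82, adjusted p = 0.0163), as it did with library totals as scaling (0.0367) and with DESeq2 (0.0326). NOP58 measured 270.1, 431 and 563 CPM with glucose and 534, 316 and 551 CPM without it, with a log2 fold change of 0.15 ± 0.29. RRP9, a protein particular to the U3 snoRNP, measured 27.98, 19.5 and 29.9 CPM with glucose and 16.7, 31.5 and 24.0 CPM without it. Both NOP58 and RRP9 overlapped between the groups.

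Of the box H/ACA proteins, which belong to the snoRNPs that change uridine to pseudouridine, NHP2 fell. NHP2 (Entrez 55651), an RNA-binding core protein, went from 311, 305 and 463 CPM with glucose to 215, 209 and 167 CPM without it. The groups did not overlap, and the log2 fold change was −0.87 ± 0.22 (edgeR adjusted p = 0.0159). The call for NHP2 was lost when replicate 3 of either group was left out (0.0844 for that with glucose, 0.0762 for that without).

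DKC1, dyskerin, the pseudouridine synthase itself, measured 299, 530.4 and 496 CPM with glucose and 423, 332 and 364 CPM without it. GAR1, a further core protein, measured 77.2, 74.5 and 69.0 CPM with glucose and 64.3, 71.8 and 75.7 CPM without it. NOP10, the smallest core protein, measured 280.5, 230.2 and 217 CPM with glucose and 209.5, 282 and 250 CPM without it. These 3 genes overlapped between the groups, with log2 fold changes of −0.25 ± 0.24, −0.06 ± 0.19 and 0.03 ± 0.20.

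In the small-subunit processome, which assembles on the precursor RNA, 1 of 8 genes fell (12.5%, near the 10.7% of all tested genes) and 7 did not pass. UTP18 (Entrez 51096), a processome protein, went from 96.1, 211 and 112 CPM with glucose to 50.1, 65.1 and 62.1 CPM without it. No library without glucose reached the lowest with glucose, and replicate 2 with glucose was well above the other libraries. Its log2 fold change of −1.24 ± 0.28 was the lowest of the 45 (edgeR adjusted p = 0.00865).

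NOP14, a structural protein of the processome, measured 77.3, 152 and 190.2 CPM with glucose and 122, 69.7 and 66.6 CPM without it. Its log2 fold change was −0.70 ± 0.32 (edgeR adjusted p = 0.137), and without replicate 1 with glucose it was −0.9952 and passed (adjusted p = 0.0262). UTP14A, which activates the helicase that releases U3, measured 71.8, 129 and 217 CPM with glucose and 142, 70.6 and 92.3 CPM without it. UTP4, of the module that first binds the precursor, measured 100.3, 70.7 and 83.5 CPM with glucose and 76.5, 70.2 and 67.5 CPM without it. NOP14, UTP14A and UTP4 all overlapped between the groups. The other 4 processome genes, WDR43, WDR75, UTP15 and UTP20, had log2 fold changes from −0.03 to 0.33 with overlapping groups.

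Of 5 factors of later 40S maturation, BYSL fell. BYSL (Entrez 705), bystin, went from 41.1, 30.6 and 29.1 CPM with glucose to 21.6, 23.1 and 20.4 CPM without it, and the groups did not overlap. Its log2 fold change was −0.63 ± 0.21 (edgeR adjusted p = 0.0466), close to the threshold. With each library left out in turn BYSL missed it every time, at adjusted p-values between 0.0623 and 0.135.

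RRP12, which helps export of the subunits, measured 49.2, 63.1 and 61.0 CPM with glucose and 51.5, 43.5 and 39.1 CPM without it. TSR1, which occupies the site of a translation factor on the immature subunit, measured 119.8, 224 and 217 CPM with glucose and 202, 96.0 and 157 CPM without it. LTV1, a late assembly factor, measured 50.3, 117 and 137 CPM with glucose and 111, 88.4 and 85.0 CPM without it. None of the 3 passed, and all overlapped between the groups, as did NOB1, the nuclease that makes the last cut of the small-subunit RNA (log2 fold change 0.04 ± 0.21).

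The 60S assembly factors, the largest role, held most of the calls. Of the 16, 5 fell (31.25%, against 10.7% of all tested genes) and 1 rose (6.25%, against 11.6%), with a median log2 fold change of −0.45. BOP1 (Entrez 23246), of the complex with PES1 and WDR12 that is needed to process the large-subunit RNA, went from 114, 110.1 and 110.0 CPM with glucose to 59.8, 56.6 and 63.1 CPM without it. The libraries of each group lay close together and the groups were far apart (log2 fold change −0.89 ± 0.19, edgeR adjusted p = 0.00507). PES1 (Entrez 23481) went from 40.3, 66.4 and 105 CPM with glucose to 40.9, 39.3 and 24.5 CPM without it. Replicate 1 with glucose fell within the range of the libraries without glucose, and the log2 fold change was −1.02 ± 0.32 (edgeR adjusted p = 0.0377). PES1 passed with that replicate left out (0.00742), and missed the threshold when any other library was left out (0.0576 to 0.184). WDR12, the third protein of the complex, had a log2 fold change of 0.0032 ± 0.20, and the difference between these members was not tested.

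MRTO4 (Entrez 51154), which holds the place of a stalk protein on the immature 60S particle, went from 258, 304 and 243 CPM with glucose to 153, 135 and 161 CPM without it. RRP1B (Entrez 23076), a nucleolar protein of 60S assembly, went from 225, 182 and 164 CPM with glucose to 115, 104 and 97.4 CPM without it. NOP16 (Entrez 51491), a further 60S factor, went from 117, 92.6 and 107 CPM with glucose to 61.5, 68.2 and 52.1 CPM without it. In all 3 the libraries without glucose lay below every library with glucose. The log2 fold changes were −0.84 ± 0.20, −0.86 ± 0.20 and −0.80 ± 0.20, with edgeR adjusted p-values of 0.00910, 0.0100 and 0.0143. The call for NOP16 was lost when replicate 3 of the group without glucose was left out (0.0687).

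NOP53 (Entrez 29997), which brings the RNA exosome to the immature 60S particle, was the single factor that rose. It went from 165, 127 and 149.7 CPM with glucose to 240.1, 214 and 244 CPM without it, and the groups did not overlap. Its log2 fold change was 0.66 ± 0.19 (edgeR adjusted p = 0.0291). The call was lost with library totals as scaling (0.0505). It was also lost when replicate 2 (0.122) or 3 (0.0839) with glucose was left out, or replicate 1 (0.0694) or 3 (0.0881) of the other group.

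**Figure D2:**
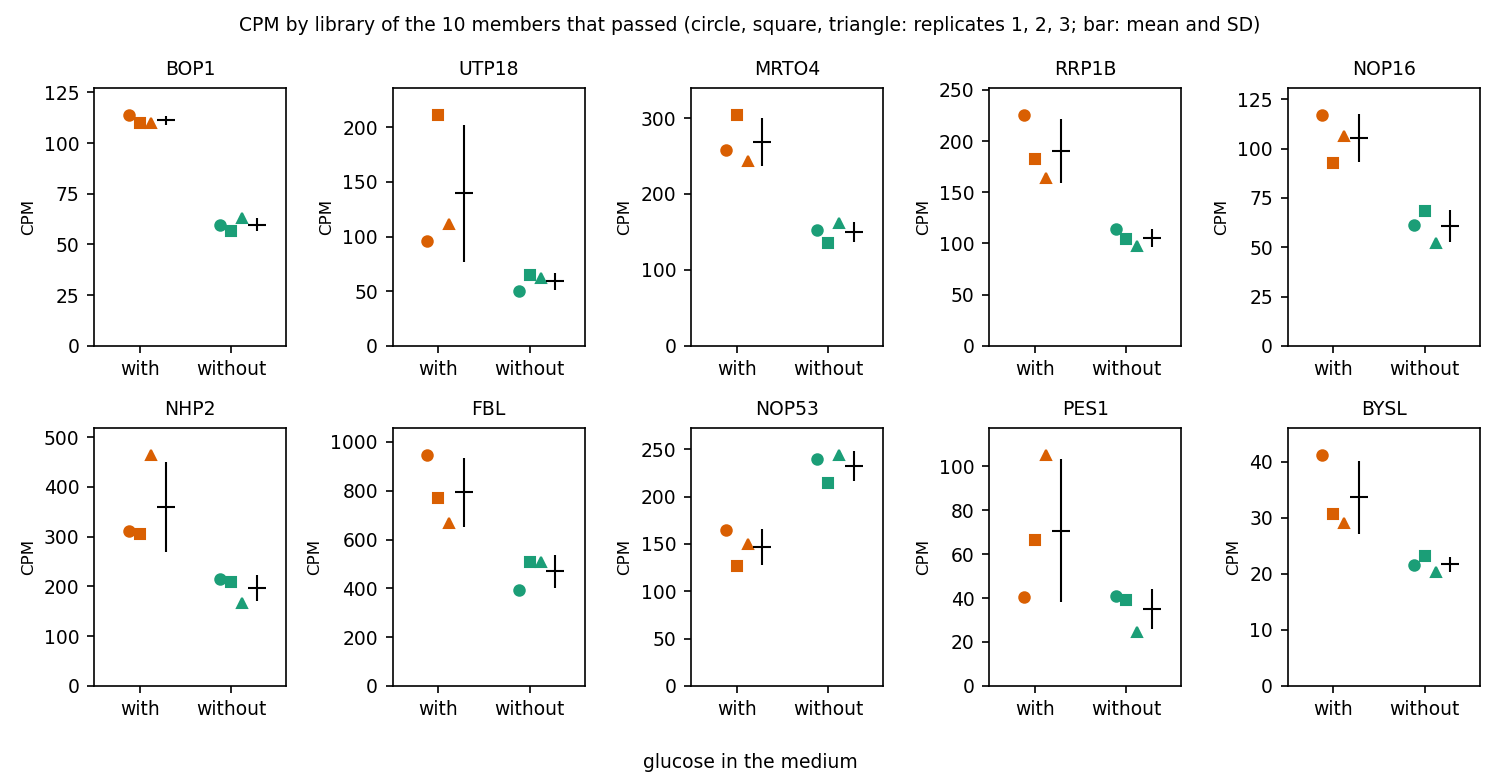
CPM (y axis, from 0) in each library of the 10 factors that passed, with glucose (orange) and without glucose (green). Markers stand for replicates 1, 2 and 3 and black bars for the mean and SD; the groups do not overlap except in PES1, where replicate 1 with glucose lies at 40.3 CPM.

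The other 10 of the 60S factors did not pass. NOP2, an RNA methyltransferase, and RRP1, the close relative of RRP1B, were lower in every library without glucose than with it (log2 fold changes −0.51 ± 0.20 and −0.60 ± 0.24, edgeR adjusted p = 0.0845 and 0.0875). RRP1 passed when replicate 1 of the group without glucose was left out (0.0458). EBNA1BP2, an assembly factor that binds early 60S particles, measured 431, 986 and 1419 CPM with glucose and 809.6, 655 and 708 CPM without it. The low library was again replicate 1 with glucose, and without it EBNA1BP2 passed (log2 fold change −0.73, adjusted p = 0.0336). With replicate 3 of the same group left out instead, its log2 fold change was 0.03 and it did not pass (edgeR adjusted p = 0.962). PPAN, the least covered factor with a mean of 41.8 counts per library, shares its position with the read-through gene PPAN-P2RY11 in RefSeq, so its reads may have been set aside as ambiguous. NIP7 and GNL2, a GTPase of 60S export, had log2 fold changes of 0.02 and −0.0033.

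Of the 10 factors that passed, 6 share part of their position with another gene in RefSeq, and whether counting used strand is not given in the sources used here. The partners SCX of BOP1 and ARL10 of NOP16 had no counts. RMND5B of NHP2, MBTD1 of UTP18 and MED20 of BYSL had log2 fold changes of −0.42, −0.20 and 0.29 and did not pass. The partner of NOP53 was not analysed here.

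A second pattern, seen also in other tested genes, separated libraries of the same group. NCL, GNL2, NOP58, UTP14A, TSR1 and 6 other factors were lowest in replicate 1 of the group with glucose and also lowest in replicate 2 of the group without it. That made 11 of 45 factors (24.4%), against 17.6% of all tested genes. For NCL the deviations from the mean of the other libraries of the group were −0.96 and −1.17 on the log2 scale. For GNL2 they were −0.86 and −1.17, for NOP58 −0.87 and −0.78, and for EBNA1BP2 −1.46 and −0.21. None of these 11 factors passed between the groups, whereas 22.3% of all tested genes did. They were picked for a low library in each group, which favours wide spread within groups, so no conclusion is drawn from this. Of the 45 factors, 20 were lowest of their group in replicate 1 with glucose (44.4%, against 36.8% of all tested genes). Another 17 were highest there (37.8%, against 42.1% of all tested genes). In the group without glucose, 17 factors were lowest in replicate 2 (37.8%, against 33.9% of all tested genes). Replicate 3 was lowest for 18 factors (29.2% of all tested genes), so replicate 2 was not the main low library of its group. Summed over the 45 factors, the level was 9036, 12170 and 13924 CPM with glucose and 10718, 8376 and 10538 CPM without it, and the groups overlapped through replicate 1 with glucose. With that library left out, both sums with glucose lay above all 3 without it.

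**Figure D3:**
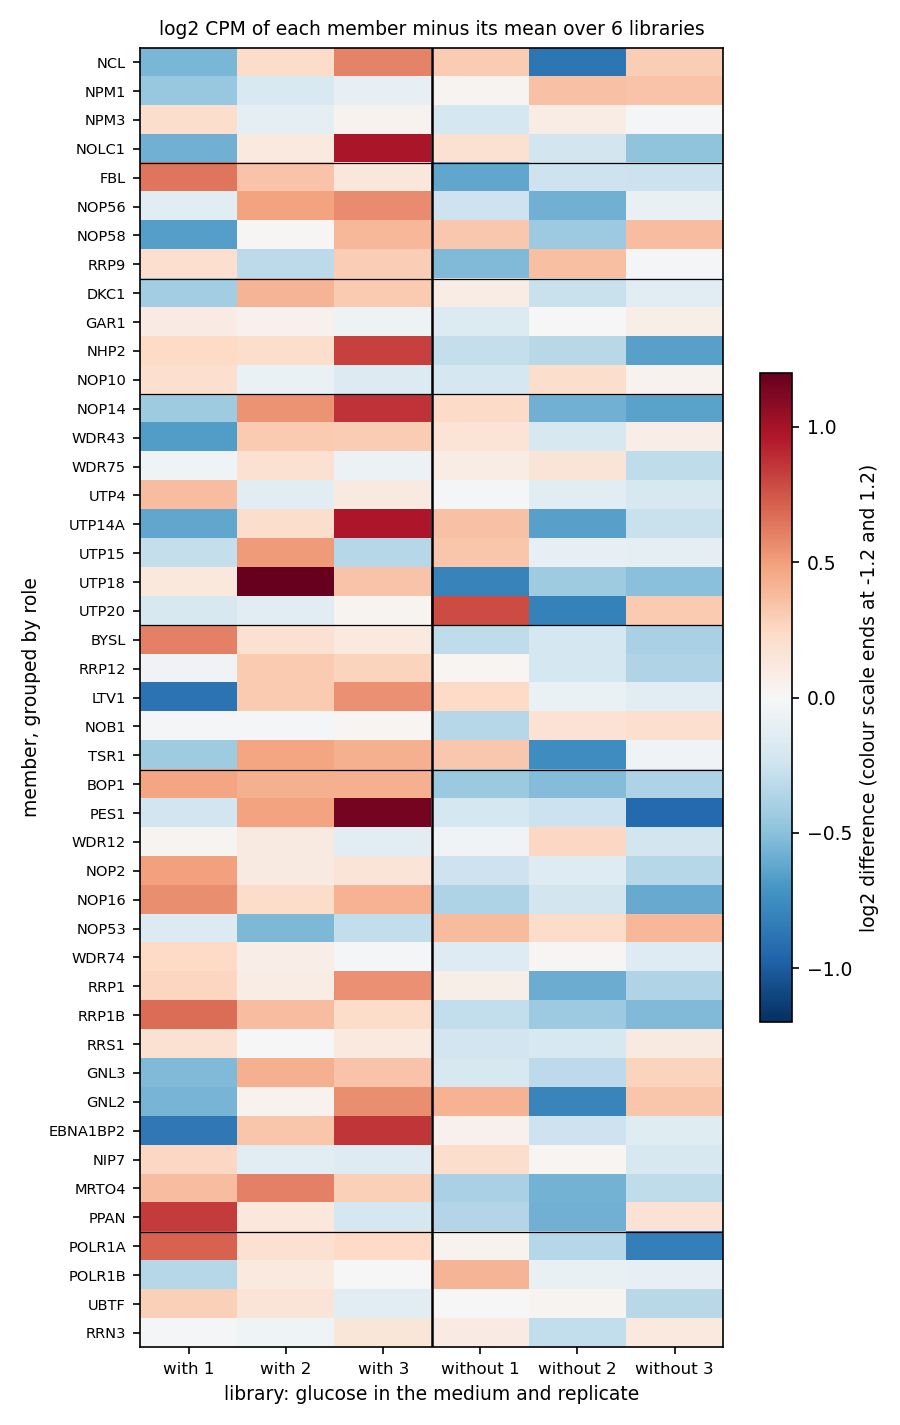
Log2 CPM of each factor (rows, grouped by role) minus its mean over the 6 libraries (columns). Factors such as NCL, UTP14A and GNL2 are blue in replicate 1 with glucose and in replicate 2 without it, whereas BOP1, RRP1B and MRTO4 change colour between the groups.

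The factors also differed in base composition, a feature that the choice of genes did not use. The A content of the coding sequence (GENCODE release 29) was taken for 44 factors, with a median of 28.1%, against 25.8% over 11310 tested genes. Coding sequences shorter than 300 bases were left out, and NOP10 had no value. Across the 44 factors, the deviation of replicate 1 with glucose went down as A content went up (Spearman's rho −0.64). The same relation over all 11310 genes had a rho of −0.43. For replicate 2 without glucose the values were −0.36 over the factors and −0.23 over all genes. Other libraries also showed a relation. Replicate 1 without glucose had 0.42 over the factors and 0.26 over all genes, and replicate 3 had 0.07 and −0.03. Replicates 2 and 3 with glucose had 0.62 and 0.40 over the factors and 0.31 and 0.27 over all genes. In replicate 1 without glucose, coding length had a rho of 0.58 over the factors and 0.20 over all genes. Each deviation sets a library against the others of its group, so the values within a group depend on each other. Points in each relation also share the depth of that library, so no p is given. GC content moved with the deviation of replicate 1 with glucose in the opposite direction (rho 0.50 over the factors). Its part and that of A content cannot be told apart here. Between the groups, the log2 fold change of the factors had a rho of 0.29 with A content (0.12 over all genes) and of −0.45 with GC content (−0.16 over all genes).

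Coding stretches of 30 bases with the most A are shown for some factors with much or little A, with A in capitals, since A content is the feature compared. They are examples chosen after values were seen, and other factors depart from the order they show. The first 4 factors were low in replicate 1 with glucose and the last 3 were not.
NCL, coding bases 1123 to 1152: gAAAttAAActAgAgAAAccAAAAggAAAA
NOP58, coding bases 1544 to 1573: cAgAgAAAAAgAAgAAAAAgAAAAAAAAgA
GNL2, coding bases 2111 to 2140: tgAAAAAtAggAAcAggAAcAAAAAgAAgA
UTP14A, coding bases 726 to 755: AAgAgAgAAgAAAAtcAAAAgtAAAAAgtA
FBL, coding bases 845 to 874: AAgtgAAAAAgAtgcAAcAggAgAAcAtgA
RRP9, coding bases 206 to 235: AggAgctggAggAAActgcAcAggAAAAgA
NPM3, coding bases 457 to 486: gAAgAggAAgAggAcAgtgAtgAggAAgAA
The stretches held 19, 23, 19 and 20 A bases in NCL, NOP58, GNL2 and UTP14A, and 16, 13 and 14 in FBL, RRP9 and NPM3. In NPM1 and RRP1B the richest stretch also held 19 A bases, and their deviations in replicate 1 were −0.31 and 0.38. UTP20 held 23 and stood at −0.14, whereas PES1 held 16 and stood at −1.04. The count alone thus did not order the factors.

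**Figure D4:**
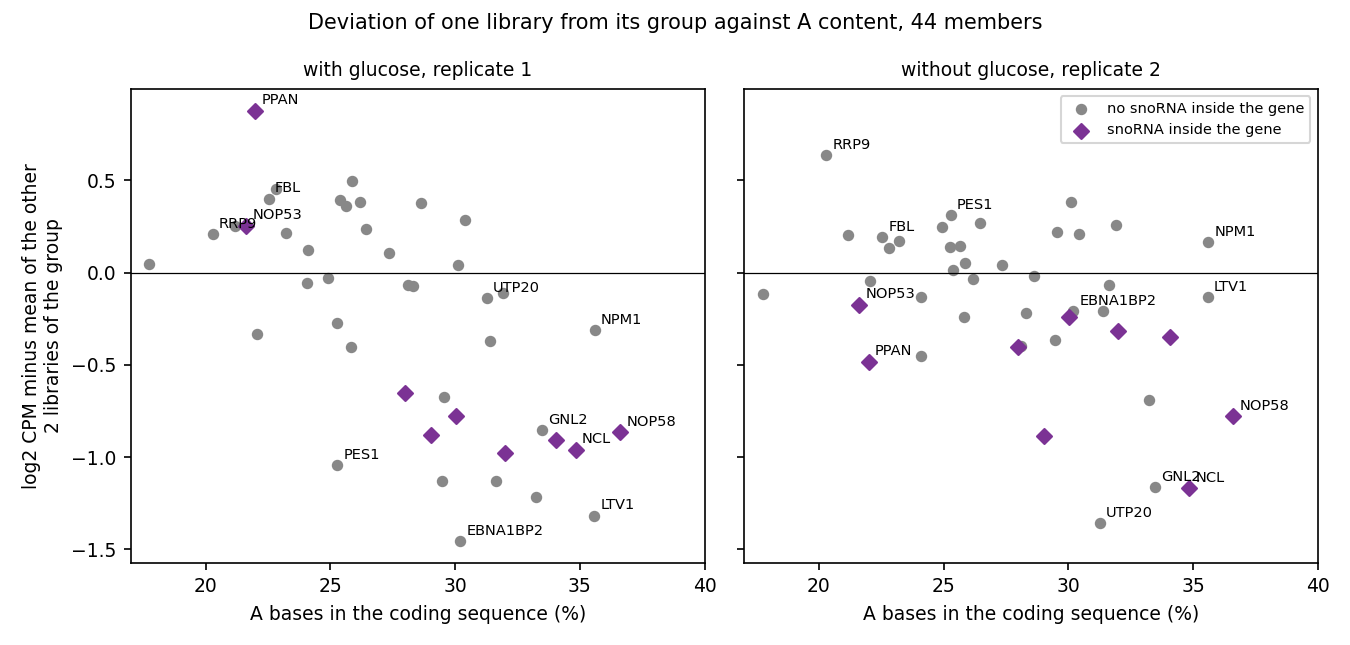
Deviation of 1 library from the mean of the other libraries of its group (y axis, log2 CPM) against the A content of the coding sequence (x axis, percent) for 44 factors, in replicate 1 with glucose (left) and replicate 2 without it (right). Purple diamonds are factors with a snoRNA inside the gene; on the left RRP9, with few A, lies at 0.21, NCL, with many, at −0.96, and EBNA1BP2 lowest at −1.46.

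Several factors also carry snoRNA genes within their own gene, as is known for hosts that release snoRNAs from introns. By RefSeq, 9 of the 45 do: NCL, NOP56, NOP58, DKC1, WDR43, TSR1, GNL3, NOP53 and PPAN. NOP56 and GNL3 hold 5 snoRNA genes each. None of the 9 fell and 1 (NOP53) rose, and 9 of the 36 others fell, beside 10.7% of all tested genes that fell and 11.6% that rose. The 0 among hosts was not stable, since NOP56 fell with library totals as scaling, with DESeq2 and with replicate 1 with glucose left out. The medians of the log2 fold change were −0.20 in the hosts and −0.23 in the others, and the difference was not tested. Of the 9 hosts, 7 were lowest in both replicate 1 with glucose and replicate 2 without it, against 4 of the 36 others. Hosts also had more A in their coding sequence (median 30.03% against 26.4%), and which of these features goes with the split was not tested.

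Promoters were compared by the letters of short motifs in the 250 bases before the RefSeq start, on either strand, for the 39 factors with an entry. The search covered the E-box CACGTG, its variant CACGCG, the ETS-type core CCGGAAG and the GC box GGGCGG. It also covered the CCAAT box, as ATTGG, the TATA box, as TATAAA, the YY1-type CCATNTTG, the E2F-type TTTCGCGC and a palindrome with a CGCG centre, which was found in 1 factor. CCGGAAG was found in 15 of 39 factors, or 38.5%, against 19.45% of tested genes and 10.2% of all genes with an entry. Of the 7 factors that fell and had an entry, 3 held it. CACGTG was found in 6 of 39, or 15.4%, against 11.4% of tested genes and 7.73% of all genes with an entry. GGGCGG was found in 69.2% of the factors and 75.95% of tested genes. The motifs can overlap each other, and a match describes letters only.

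Bases 250 to 41 before the start are shown for UTP18 and FBL, which fell, and for NOP53, which rose, with capitals for CCGGAAG and CACGTG in UTP18, CCGGAAG and ATTGG in FBL, and CCATNTTG in NOP53 (RefSeq, GRCh38.p14, read 5′ to 3′ on the gene's strand). UTP18 lies on the plus strand at chr17:51260296-51260505, FBL on the minus strand at chr19:39846420-39846629 and NOP53 on the plus strand at chr19:47745296-47745505.
UTP18: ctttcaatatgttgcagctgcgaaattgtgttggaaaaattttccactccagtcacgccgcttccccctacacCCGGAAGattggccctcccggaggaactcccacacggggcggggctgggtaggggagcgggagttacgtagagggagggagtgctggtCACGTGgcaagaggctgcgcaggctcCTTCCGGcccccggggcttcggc
FBL: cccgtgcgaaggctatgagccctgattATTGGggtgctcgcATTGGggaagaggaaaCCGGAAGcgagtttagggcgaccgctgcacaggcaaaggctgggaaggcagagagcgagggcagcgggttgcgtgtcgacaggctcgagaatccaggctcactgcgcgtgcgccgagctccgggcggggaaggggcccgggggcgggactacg
NOP53: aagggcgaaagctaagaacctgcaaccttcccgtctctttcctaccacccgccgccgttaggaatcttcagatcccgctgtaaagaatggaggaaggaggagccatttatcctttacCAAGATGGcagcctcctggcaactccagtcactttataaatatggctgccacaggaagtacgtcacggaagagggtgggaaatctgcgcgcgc
UTP18 held CACGTG once and CCGGAAG on both strands. FBL held CCGGAAG once and ATTGG 2 times. NOP53 held neither CACGTG nor CCGGAAG in this window. Matches to other motifs of the search were left in lower case. They were ATTGG and GGGCGG in UTP18, CACGCG and GGGCGG in FBL, and TATAAA in NOP53.

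Other genes of ribosome assembly and the ribosomal protein genes were counted from lists. Of 45 other small-subunit factors 2 rose and 6 fell (13.3%, near the 10.7% of all tested genes), with a median log2 fold change of −0.25. Of 46 other large-subunit factors 2 rose and 8 fell (17.4%), with a median of −0.22. NOP9 and AATF, of the small-subunit list, fell with log2 fold changes of −0.99 ± 0.23 and −0.82 ± 0.21. LAS1L, of the complex that cuts the spacer between large-subunit RNAs, had 184.6 ± 23.9 CPM with glucose and fell to 85.4 ± 7.27 CPM (means with SD, 3 libraries each). NMD3, the adaptor for export of the 60S subunit, rose from 21.4 ± 3.57 to 79.4 ± 27.6 CPM. Replicate 1 with glucose was the lowest of its group in 59.2% of these genes and the RNA polymerase I list (103 genes), against 36.8% of all tested genes.

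Of 12 other RNA polymerase I genes, 1 rose and 1 fell (8.33% each, near the 11.6% and 10.7% of all tested genes). TAF1D, a subunit of the promoter selectivity factor, rose from 71.9, 60.7 and 58.8 CPM with glucose to 298, 199 and 391 CPM without it. TCOF1, the treacle protein that works with UBTF, fell from 804, 683 and 699 CPM to 363, 368 and 435 CPM. The groups did not overlap in either gene, and the log2 fold changes were 2.21 ± 0.26 and −0.91 ± 0.19. In the RNA exosome, which trims ribosomal RNA, 1 of 15 genes fell (6.67%, near the 10.7% of all tested genes): EXOSC4 had a log2 fold change of −1.09 ± 0.23, and EXOSC2 had −0.56 ± 0.22 and did not pass.

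Ribosomal protein genes rose in 9 of 46 cases for the large subunit, with none that fell (19.6% rose, against 11.6% of all tested genes; median log2 fold change 0.29). In the small subunit 2 of 32 tested genes rose (6.25%) and 1 fell (3.125%, against 10.7% of all tested genes), with a median of 0.25. RPL12 rose from 523, 696.5 and 647 CPM with glucose to 2452.5, 995 and 2855 CPM without it, and RPL26 rose with a log2 fold change of 1.02 ± 0.22. RPS12 rose by 0.67 ± 0.18 on the log2 scale, and RPS26 fell with −1.14 ± 0.19. Summed over the 46 large-subunit genes, the level was 65729 to 70559 CPM with glucose and 79857 to 83164 CPM without it. Over the 33 small-subunit genes it was 45869 to 46651 CPM with glucose and 51776 to 56802 CPM without it, and in both sums the groups did not overlap. With replicate 2 or 3 of either group left out, 2 to 5 of the large-subunit genes rose (7.10% to 9.66% of all tested genes rose). Ribosomal protein genes have many pseudogenes, so their levels are uncertain where reads align to several copies.

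**Figure D5:**
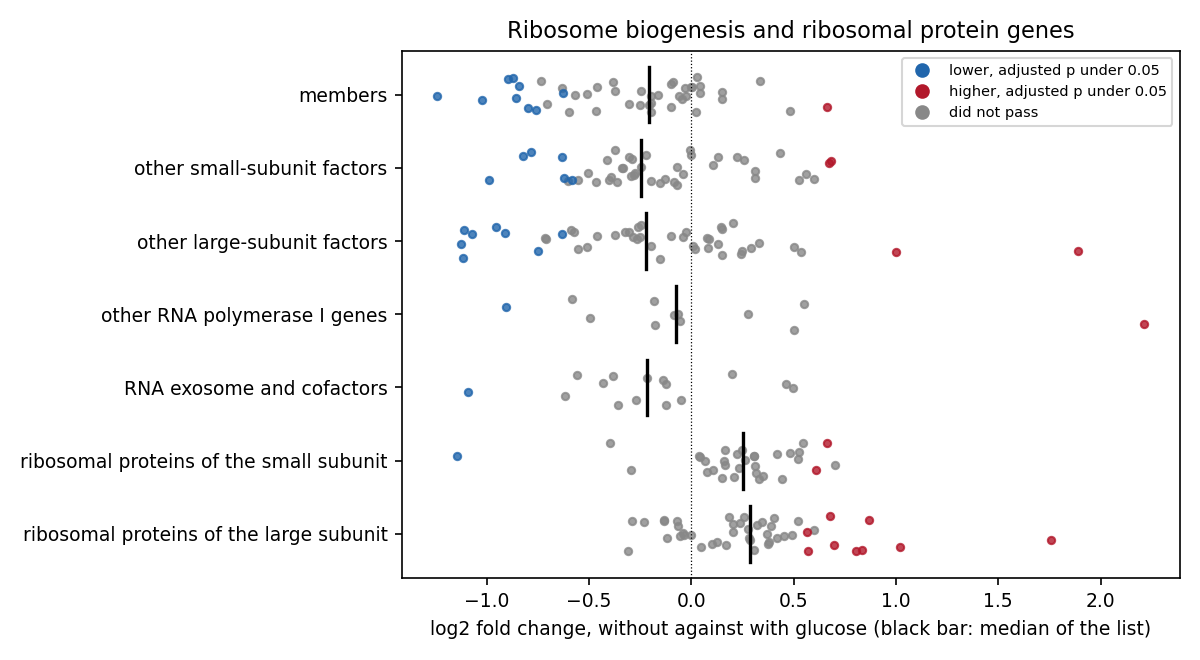
Log2 fold changes without against with glucose (x axis) of single genes (points) in 7 lists (y axis), coloured by whether they fell, rose or did not pass, with a black bar at the median of the list. The median is −0.20 for the 45 factors and 0.29 for ribosomal proteins of the large subunit.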

How the data were processed

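The authors deposited unnormalized gene counts of 6 libraries in 1 table. The submitters' processing notes name STAR, HTSeq and hg19; the sources used here do not give versions, annotation or strand setting. Per the labels' protocols, cDNA was primed with barcoded oligo-dT and libraries were pooled by the Actb signal. No molecular identifiers are mentioned, so PCR copies count as separate reads. The 5 HTSeq summary lines stayed out of library sizes and tests; genes held 43.1% to 44.7% of the table's reads.

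Of 19240 Entrez numbers, 19178 matched a RefSeq symbol (GRCh38.p14, names and neighbours only). Groups came from the labels. Counts were tested with the quasi-likelihood test of edgeR 4.0.16 (two-sided) over both groups, with TMM scaling, filterByExpr (minimum count 10) and no covariate. P-values were adjusted by Benjamini-Hochberg over 11886 genes. SE was taken as |log2 fold change| over the root of F. CPM uses TMM-scaled library sizes; deviations of a library use log2(CPM + 0.5). The test was checked on simulated data.

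The members and lists were chosen with earlier results of these data known. Described by library are NCL, NPM1, FBL, POLR1A, UBTF and RRN3, the 4 factors of each role (6 for 60S assembly) with the smallest p, and any that passed against the direction of its role; of each other list, the 2 genes with the smallest p. Base composition, snoRNAs, motifs and other named genes were chosen after values were seen. Libraries of a group differed beyond sampling noise (chi-square per degree of freedom 23.0 to 60.0). Alternatives were median-ratio (RLE) scaling, library totals, 2 other filters (none, a mean of 20 counts), DESeq2 1.42.0, a replicate block and leaving out each library.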

Additional observations from a re-analysis of the deposited data

How the results depend on the processing

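Among single factors no call reversed. The number of factors that fell was 9 to 11 with other scalings, other filters and DESeq2 (9.14% to 13.3% of all tested genes fell). With library totals as scaling 0 factors rose, so 0 of the 60S assembly factors did, 2 of the box C/D proteins fell, and 1 of the other small-subunit factors and 1 of the small-subunit ribosomal proteins rose. DESeq2 gave 2 box C/D proteins that fell and 6 small-subunit ribosomal proteins that rose. For RNA polymerase I, 1 gene fell with median-ratio (RLE) scaling, library totals, no filter, DESeq2 or the block.

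With each library left out in turn, 4 to 10 factors fell and 0 to 1 rose. Over all tested genes 6.52% to 10.2% fell and 7.10% to 10.7% rose in these fits. The median log2 fold change of the factors ran between −0.38 and −0.12. By role, the number that fell was 0 to 1 for box C/D, 0 to 1 for box H/ACA, 1 to 2 for the processome, 0 for later 40S maturation, 3 to 6 for 60S assembly and 0 to 1 for RNA polymerase I, and 0 to 1 of the 60S factors rose. Role medians were −0.22 to 0.074 (chaperones), −0.44 to −0.24 (box C/D), −0.25 to −0.074 (box H/ACA), −0.21 to −0.10 (processome), −0.49 to −0.082 (later 40S) and −0.48 to −0.36 (60S). Over the 6 other lists together, ribosomal proteins included, 16 genes rose and 17 fell in the main comparison, against 5 to 16 and 10 to 19 here; without the ribosomal proteins, 5 rose and 16 fell in the main comparison. Of other small-subunit factors 0 to 2 rose and 1 to 4 fell (median −0.29 to −0.12). The median of other large-subunit factors was −0.28 to −0.082. Of other RNA polymerase I genes 1 to 2 fell, and of the exosome 1 to 2 (median −0.30 to −0.16). Of ribosomal proteins, 0 to 2 of the small and 2 to 9 of the large subunit rose.

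Deviations of same-numbered libraries had correlations of −0.27, −0.12 and 0.04. The largest of any pair was 0.25, for replicate 1 with glucose and replicate 2 without it. With 3 libraries in each group, these values cannot show whether equal numbers mark paired libraries. With a replicate block 6 factors fell, of which 5 were among the 9, and 0 rose (7.66% and 8.28% of all tested genes). The block left 0 lower box C/D, 0 lower box H/ACA and 0 lower later 40S factors, 0 higher 60S factors (median −0.37), and 1 lower RNA polymerase I gene. It gave 7 higher genes over the 6 other lists, with 0 higher and 2 lower small-subunit factors, and 0 small-subunit and 4 large-subunit ribosomal proteins that rose. The causes were not tested. Depth limits PPAN most, with a mean of 41.8 counts.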
